A study of Tetranychus urticae with 4 samples.

Results

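The array held 18217 genes of the spider mite Tetranychus urticae. Among those whose transcripts fell most in diapausing against non-diapausing females were 5 enzyme genes. They code for a midA homologue (tetur09g06670), a phosphatidylserine decarboxylase (tetur12g01500), a peroxidase (tetur13g03760), a glucose dehydrogenase (tetur03g09330) and a serine protease (tetur19g00740). They were selected on their array values, as enzyme genes that fell near or beyond 100-fold, so the size of their fall is given as a description, without a test. The name "nearly silenced" that was given to them holds for the ratios, but signal was still measured: 59 of the 60 readings of their own probes in the diapausing channel were well above background.

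Diapause in this mite is a reproductive arrest of the adult female, which stops feeding and laying eggs while it overwinters. Yolk formation, the building of eggshells and much of the energy metabolism of the ovary are active in egg-laying females. The 5 enzymes are known for unlike reactions. Relatives of midA in Dictyostelium and in human cells act in the assembly of complex I of the mitochondrial respiratory chain. Phosphatidylserine decarboxylase makes phosphatidylethanolamine, a main lipid of membranes, in the mitochondrion. The peroxidase is annotated as a peroxinectin or chorion peroxidase, a kind of haem enzyme that in mosquitoes cross-links the proteins of the eggshell. Glucose dehydrogenase is a flavin enzyme that oxidizes glucose, and the serine protease is annotated as a proclotting enzyme, a protease that in horseshoe crabs sets off the clotting of the haemolymph.

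The study hybridized 4 arrays with 2 dyes. Both samples of each array were RNA from whole adult females of the green strain LS-VL, raised at 17 °C and 80% humidity with 8 h of light and 16 h of dark. One sample came from a pool of females that had entered diapause under these conditions (Cy5), the other from a pool of females that had not (Cy3). The groups thus share strain, temperature and day length, and differ in their response to them, and the diapausing pools held more females than the non-diapausing pools. No source used here says that the pools came from separate cultures, so spreads and p values measure the spread between these pools. The dyes were not swapped, and dye and diapause cannot be told apart. As the RNA came from whole mites, fewer cells of a type and less RNA per cell cannot be told apart either.

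A gene value is the mean over its probes of the log2 ratio of diapausing over non-diapausing females, so that -1 is a 2-fold lower signal in diapause. Between 67.2% and 72.1% of the gene spots of an array were well above background in either channel, and no gene spot of any array was saturated. The 6 vitellogenin genes, which code for the yolk precursors of reproducing females, had a median log2 ratio of -9.91, -8.04, -9.22 and -5.44 in replicates 1 to 4, all in the direction that the labels give. Replicate 4 stood apart for such genes. Genes were called past a threshold of an adjusted p under 0.05 in limma, with Benjamini-Hochberg adjustment over all 14986 genes tested, and at least 2-fold. Besides the vitellogenins and the enzyme genes, 50 genes were lower past the threshold with a mean under -5, and for 42 of them the log2 ratio in replicate 4 was higher than the mean of replicates 1 to 3, with a median difference of 0.70. Over all 1364 genes lower past the threshold this held for 683, with a median of 0.00, and over all genes tested the median was -0.02. Values are therefore given with and without replicate 4. The log2 fold changes of the reference genes actin (tetur09g05350), ubiquitin (tetur03g06910) and RP49 (tetur18g03590) lay between -0.31 and 0.40, and between 0.05 and 0.76 with spike-in scaling, in which the ratios are set by control RNA added to both samples.

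The sources used here hold 1 pair of sequences for these genes, the primers designed to amplify the glucose dehydrogenase transcript by quantitative PCR. They are shown, 5′ to 3′, as sequences by which the gene can be found again. The reverse primer is complementary to the transcript.
tetur03g09330 forward primer: tttgtgtgctttttcactttcc
tetur03g09330 reverse primer: tgctaatcgaccttttccatattc

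The midA gene tetur09g06670 had the brightest probes of these genes in non-diapausing females. Over its 3 probes that list no other gene, the geometric mean signal of the non-diapausing females was 236651, 174915, 195171 and 202525 intensity units in replicates 1 to 4. In diapausing females it was 84.5, 70.0, 61.8 and 1278. The diapausing signal was thus below the non-diapausing one on every array, and in replicate 4 it was 17.9 times its geometric mean over the other arrays, while the non-diapausing signal was 1.01 times its own. As a share of the non-diapausing signal, the diapausing signal was 0.0357%, 0.0400%, 0.0317% and 0.631%.

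The fourth probe listed for midA behaved differently. It also lists the gene tetur09g06600, and its log2 ratio was 0.02, -0.10, -0.12 and 0.06 in replicates 1 to 4, with a signal of 4798 to 5047 in non-diapausing and 4585 to 5107 in diapausing females. The other 2 probes of tetur09g06600 had mean log2 ratios of -0.21 and -0.15, close to the shared probe, whereas the 3 probes of midA alone had means of -11.01, -9.93 and -10.32. With all 4 probes averaged, the log2 ratio of midA was -8.58, -8.49, -8.75 and -5.47, with a mean of -7.82 ± 1.57 (SD, n = 4), or 226-fold. With the 3 probes of midA alone it was -11.45, -11.29, -11.62 and -7.31, with a mean of -10.42 ± 2.08 (SD, n = 4), or 1370-fold. The choice of probes thus moved the fall by more than the spread between arrays, and with it the place of midA in the order of falls, from 7 to 1. Without replicate 4 the fall was 390-fold with all probes and 2810-fold with the probes of midA alone.

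**Figure D1:**
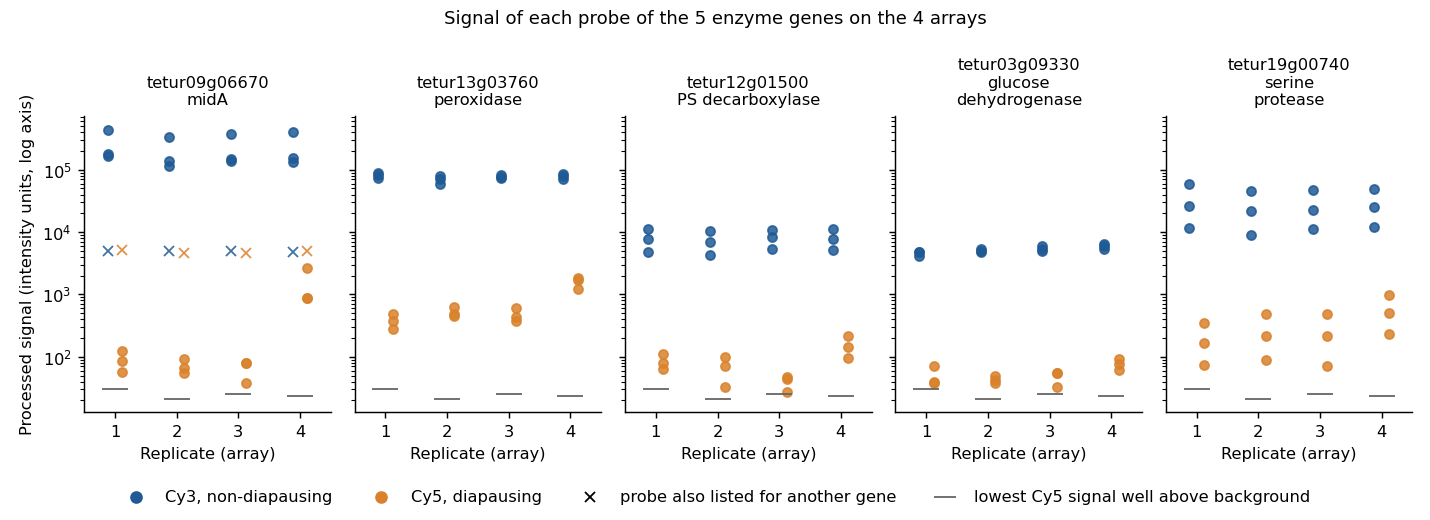
Processed signal (log axis) of each probe of the 5 enzyme genes in non-diapausing (Cy3) and diapausing (Cy5) females on the 4 arrays, with a grey bar at the lowest Cy5 signal that was well above background on that array. The Cy3 signals stayed level over the arrays, the Cy5 signals of the genes' own probes were highest in replicate 4 except for 1 probe of the dehydrogenase, which was highest in replicate 1, and the probe of midA that also lists another gene (crosses) had near equal signal in both.

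The phosphatidylserine decarboxylase gene tetur12g01500, the other enzyme of the mitochondrion, had a much lower signal. In non-diapausing females it was 7458, 6850, 7811 and 7536 intensity units in replicates 1 to 4, and in diapausing females 81.9, 61.6, 38.3 and 143. In replicate 3, 1 of its 3 probes had a diapausing signal of 27.6 and was the only reading not well above background, on an array on which the lowest reading well above it was 25.5. The log2 ratios were -6.51, -6.80, -7.67 and -5.72, with a mean of -6.67 ± 0.81 (SD, n = 4), or 102-fold. Here replicate 3 had the deepest fall, and replicates 1 to 3 spread over 2.14 times in the diapausing signal against 1.14 times in the non-diapausing signal. Its 3 probes lay close together, with mean log2 ratios of -6.66, -6.76 and -6.60. Without replicate 4 the fall was 127-fold.

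Of the enzymes that act on redox reactions, the peroxidase gene tetur13g03760 was bright in non-diapausing females, with 81283, 69623, 77226 and 79129 intensity units. In diapausing females it gave 371, 512, 465 and 1565, on each array the highest diapausing signal of the 5 genes. The log2 ratios were -7.78, -7.09, -7.38 and -5.66, with a mean of -6.97 ± 0.92 (SD, n = 4), or 126-fold. The fall ranged from 50.6-fold in replicate 4 to 219-fold in replicate 1 and was 170-fold without replicate 4. The means of its 3 probes were -6.79, -7.05 and -7.08, a spread between probes of 0.16 (SD) that was smaller than that between arrays.

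The glucose dehydrogenase gene tetur03g09330 was the most even of the group. Its signal was 4626, 5026, 5409 and 5938 intensity units in non-diapausing females and 46.8, 43.1, 46.3 and 76.0 in diapausing females. The log2 ratios were -6.63, -6.86, -6.87 and -6.29, with a mean of -6.66 ± 0.27 (SD, n = 4), or 101-fold, and the fall was 110-fold without replicate 4. All 4 arrays lay within 78.1-fold and 117-fold. The means of its 3 probes were -6.87, -6.66 and -6.46, a spread between probes of 0.21 (SD). In replicate 1 the probes were further apart, with log2 ratios of -7.03, -6.97 and -5.88. The diapausing signals of its probes, 33.1 to 90.9, came close to the lowest readings well above background, which were 21.1 to 30.1.

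The serine protease gene tetur19g00740 gave 25942, 20546, 22939 and 24403 intensity units in non-diapausing females. In diapausing females it gave 163, 212, 194 and 486. The log2 ratios were -7.31, -6.60, -6.88 and -5.65, with a mean of -6.61 ± 0.71 (SD, n = 4), or 97.8-fold, and without replicate 4 the fall was 122-fold. The means of its 3 probes, -6.57, -6.55 and -6.71, were closer to each other than the arrays were, although the brightest probe gave 57918 and the dimmest 11512 units in replicate 1.

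**Figure D2:**
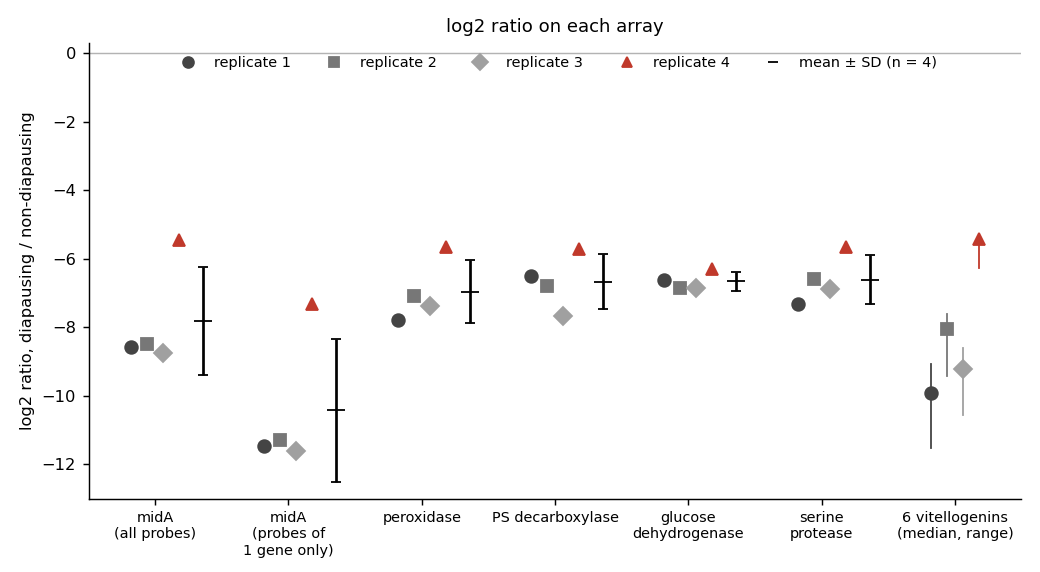
log2 ratio of diapausing over non-diapausing females on each of the 4 arrays for the 5 enzyme genes, with the mean and SD (n = 4) beside them, and the median and range of the 6 vitellogenin genes on each array. midA is shown with all 4 probes and with the 3 probes that list no other gene, and replicate 4 (triangles) was the shallowest array for each gene.

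Between these genes, the fall of midA on its own probes was deeper on all 4 arrays than that of any of the other 4. Its log2 ratio minus that of the next deepest was -3.68, -4.20, -3.95 and -1.02 in replicates 1 to 4. The other 4 lay within 1.27, 0.49, 0.80 and 0.64 of each other, and the deepest of them was the peroxidase in replicates 1 and 2, the decarboxylase in replicate 3 and the dehydrogenase in replicate 4. Their means, from -6.97 to -6.61, differed by less than the spread of each between arrays except for the dehydrogenase, whose spread was 0.27.

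The differences between arrays came with the diapausing channel. The non-diapausing signal of each gene varied by 1.14 to 1.35 times over the 4 arrays, with SDs of 0.08 to 0.18 on the log2 scale. The diapausing signal varied by 20.7 times for midA, 4.22 times for the peroxidase, 3.74 times for the decarboxylase, 2.98 times for the protease and 1.76 times for the dehydrogenase, and was highest in replicate 4 for each. In replicate 4 the diapausing signal was 0.631% to 1.99% of the non-diapausing one, and 0.0317% to 1.1% in the other replicates. The median Cy5 signal of the negative control spots was 5.75 in replicate 4 and 5.41 to 7.23 in the others. With spike-in scaling replicate 4 was again the shallowest array for each gene, with log2 ratios of -6.50 for midA on its own probes and -5.48 to -4.84 for the others.

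Replicate 4 exceeded the mean of replicates 1 to 3 by 3.14 on the log2 scale for midA with all probes and by 4.15 with its own probes. The difference was 1.75 for the peroxidase, 1.28 for the protease, 1.27 for the decarboxylase and 0.50 for the dehydrogenase. For all 6 vitellogenin genes it was above 0, from 2.86 to 5.10. The differences of the enzyme genes thus had the same sign as those of the vitellogenins, the markers of reproducing females. The same sign was seen for 42 of the 50 other genes lower past the threshold with a mean under -5, with a median of 0.70 over the 50. The part of reproducing females or of their RNA in the diapausing sample of replicate 4 was not tested.

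**Figure D3:**
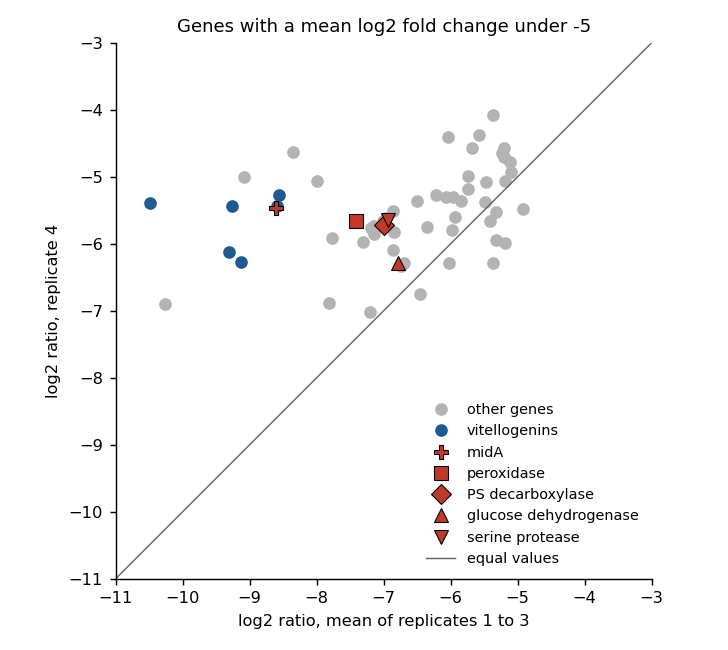
log2 ratio in replicate 4 against the mean of replicates 1 to 3 for the genes that were lower past the threshold with a mean log2 fold change under -5, each point 1 gene, with the 5 enzyme genes (midA with all 4 probes) and the 6 vitellogenins marked. The line marks equal values, and all enzyme genes and vitellogenins lie above it, as do 42 of the 50 other genes.

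In the order of falls over all genes tested, the 5 genes took places 7, 16, 22, 23 and 26. Next to the fall of midA with all its probes stood tetur18g03020, a gene of unknown function with a log2 fold change of -8.07, and the vitellogenin gene tetur516g00020 with -7.81. Between the dehydrogenase and the protease stood tetur07g07500 with -6.64 and tetur01g02540 with -6.62. Just below the protease, and outside the group, came tetur10g02800 and tetur14g01460, both with -6.59, so nothing in the values separates the group from the genes that follow it.

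The pattern over the 4 arrays was compared between each enzyme gene and all other genes by the Euclidean distance between their log2 ratios, in which both depth and pattern count. The genes most like midA with all its probes were the vitellogenin genes tetur516g00020 (distance 0.63) and tetur43g00020 (1.27), followed by tetur18g03050 (1.33), which has no known function. With the probes of midA alone, a choice made after the data were seen, they were its neighbour tetur09g06700, annotated as a lipase (2.33), and the vitellogenin genes tetur39g00700 (2.88) and tetur39g00810 (3.96). For the protease the closest was tetur02g11420 (0.35), before tetur01g02540 (0.47) and tetur01g10190 (0.54). For the dehydrogenase it was tetur17g03230, a lipase A gene (0.26), before tetur07g07500 (0.58) and tetur14g01460 (0.78).

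The gene tetur01g10190 was the closest to the peroxidase (0.59), before tetur475g00020 (0.71) and the protease itself (0.83), and the second closest to the decarboxylase (0.92), between tetur10g02800 (0.77) and tetur07g07500 (0.95). Its log2 ratios were -7.26, -6.99, -7.19 and -5.86. Distances over 4 arrays that share the high replicate 4 are a description, and the arrays are too few for a correlation.

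The genes around each enzyme gene were then taken, as those whose IDs lie within 5 places on the same scaffold. The question was whether the falls were shared by neighbours. Of the 52 such genes on the array, 49 were tested, 10 were lower and 2 higher in diapausing females past the threshold of limma given above. This is 20.4% lower and 4.08% higher, against 9.10% lower and 9.04% higher over all genes tested. The median log2 fold change of the neighbours was -0.11, and 32 of the 49 (65.3%) had an adjusted p under 0.05 in limma whatever their fold, against 64.8% of all genes tested. The count of lower neighbours was 5 after background correction by normexp with loess, where 5.37% of all genes were lower, and 4 when a change beyond 2-fold was itself tested, where 4.72% were. The 5 neighbours still lower with normexp and loess were tetur09g06680, tetur09g06700, tetur03g09300, tetur03g09310 and tetur19g00780.

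Of the 10 lower neighbours 5 lay near midA, among 13 tested there. The deepest was tetur09g06700, the lipase gene, with log2 ratios of -9.93, -10.90, -9.95 and -6.90 and a mean of -9.42 ± 1.74 (SD, n = 4, limma adjusted p = 0.000368), lower on all 4 arrays. In diapausing females 5 of its 12 probe readings were well above background, none of them in replicate 2, so the depth of its fall in replicates 1 to 3 rests mostly on signals at background. Lipases release fatty acids from stored or dietary fat. Like midA, it was shallowest in replicate 4. Directly beside midA, tetur09g06680 had log2 ratios of -2.51, -3.38, -3.24 and -1.34, with a mean of -2.62 ± 0.93 (SD, n = 4, limma adjusted p = 0.00256). The gene on the other side, tetur09g06660, had a mean of -0.72 and was not past the threshold. It rests on 1 probe that was well above background in diapausing females in replicate 1 alone, where its log2 ratio was 0.02. The other 3 lower neighbours, tetur09g06630, tetur09g06690 and tetur09g06718, had means of -1.18, -1.40 and -1.29. Of these, tetur09g06690 rests on 1 probe that was well above background on 1 array in each channel.

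Near the dehydrogenase 3 of 10 tested neighbours were lower. The gene tetur03g09300 had log2 ratios of -5.63, -4.64, -4.50 and -4.66, with a mean of -4.86 ± 0.52 (SD, n = 4, limma adjusted p = 0.000106). None of its probes was well above background in diapausing females in replicate 1, the array with the deepest ratio, against 8 of 12 readings over all arrays. Beside it, tetur03g09310 had -4.47, -4.31, -4.04 and -3.66, with a mean of -4.12 ± 0.36 (SD, n = 4, limma adjusted p = 7.5e-05). Both fell on all 4 arrays by less than the dehydrogenase did on any, and neither has an annotation in the sources used here. Between them and the dehydrogenase lies tetur03g09320 with a mean of -0.84, which was not past the 2-fold threshold, and the third lower neighbour, tetur03g09290, had a mean of -1.11.

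Near the protease 2 of 10 tested neighbours were lower. These were tetur19g00780, annotated as an inositol oxygenase, which breaks the ring of inositol, with a mean of -2.11 ± 0.68 (SD, n = 4, limma adjusted p = 0.00191), and tetur19g00760 with a mean of -1.37. The genes on either side of the protease, tetur19g00730 and tetur19g00750, had means of 0.54 and -0.13.

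The peroxidase and the decarboxylase had no lower neighbours past the threshold. Of the 9 tested neighbours of the peroxidase 5 (55.6%) had an adjusted p under 0.05 in limma, against the 64.8% of all genes, but their log2 fold changes lay between -0.80 and 0.51 and none reached 2-fold. Around the decarboxylase all 7 tested neighbours had means above 0, from 0.10 to 1.77. The median over all genes tested was also above 0, at 0.10. Past the threshold were tetur12g01510, directly beside it, with log2 ratios of 1.43, 1.54, 1.61 and 2.49 and a mean of 1.77 ± 0.49 (SD, n = 4, limma adjusted p = 0.00122), and tetur12g01460 with a mean of 1.19. Neither of these higher calls was kept after background correction by normexp with loess, where the means were 0.34 and 0.39. In non-diapausing females tetur12g01510 was well above background on 2 of the 4 arrays.

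**Figure D4:**
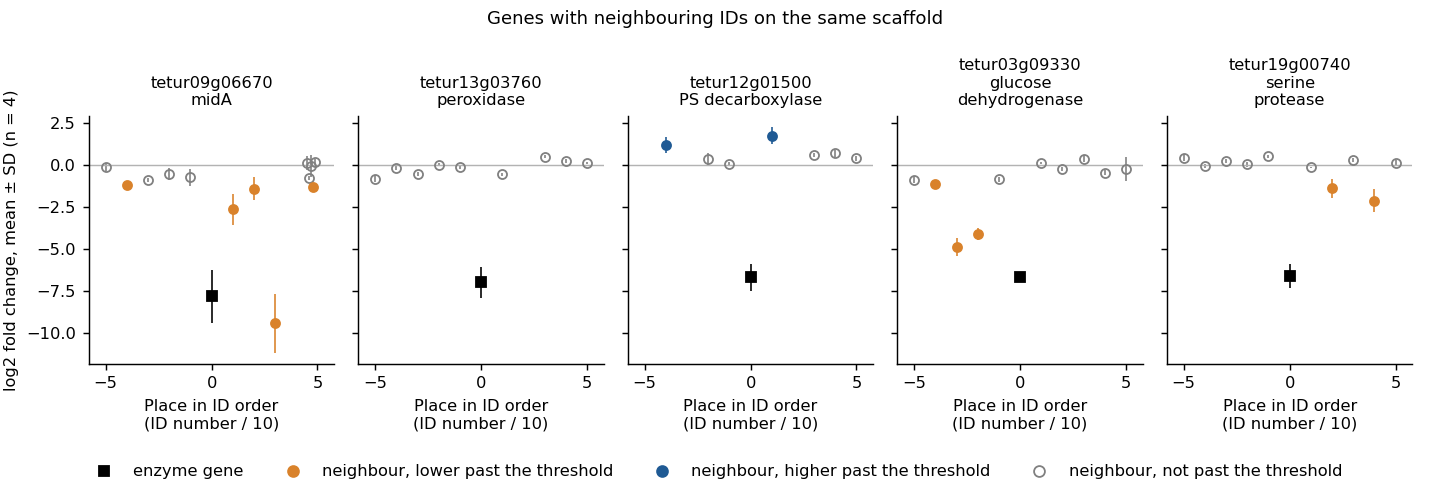
log2 fold change (mean and SD, n = 4) of each enzyme gene (black square) and of the genes within 5 places of it in the order of IDs on the same scaffold, with filled points for neighbours past the threshold. Lower neighbours stood near midA, the dehydrogenase and the protease, the 2 higher ones near the decarboxylase, and none near the peroxidase.

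How deep these falls came out depended on the processing. The alternative given here changed the starting signal, the background correction and the normalization together, and their separate shares were not tested. After background correction by normexp, which fits the background and here adds an offset of 50 to each channel, followed by loess, the log2 fold change was -5.17 for the dehydrogenase, -5.41 for the decarboxylase, -6.03 for the protease, -6.73 for the peroxidase and -7.09 for midA with all probes. The dehydrogenase and the decarboxylase, which have the lowest signals in both groups, moved from 101-fold and 102-fold to 36-fold and 42.5-fold, while the brighter peroxidase moved by less than the spread between arrays.

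**Figure D5:**
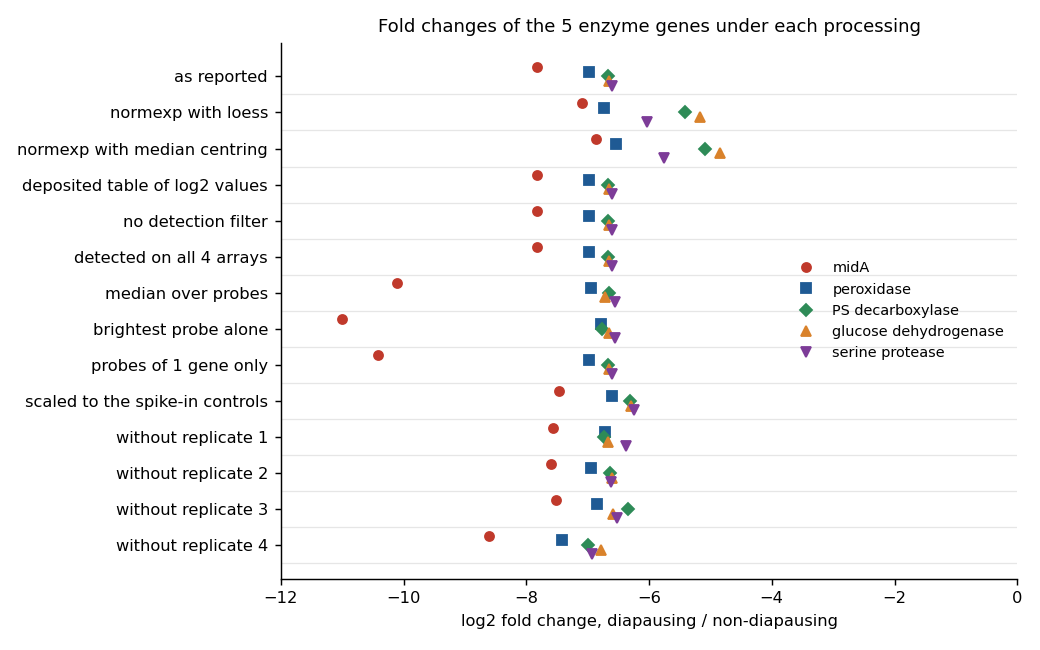
log2 fold change of each of the 5 enzyme genes (midA, peroxidase, phosphatidylserine decarboxylase (PS), glucose dehydrogenase and serine protease) under the processing as reported and under each alternative, without error bars. Normexp moved the dehydrogenase and the decarboxylase most, and the choice of probes moved midA most.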

How the data were processed

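The 4 replicate arrays compared diapausing (Cy5) with non-diapausing (Cy3) females. The authors hybridized custom Agilent arrays and extracted the signals with Agilent Feature Extraction (10.7.1.1 per the file headers). As deposited, intensity values are median and processed signals per spot and channel, the latter background-subtracted and dye-normalized, and the log10 values are ratios of processed Cy5 over Cy3 signals, converted here to log2. A deposited table of log2 values, made by the authors from the same signals, was an alternative.

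Control spots and spots flagged as non-uniform or population outliers were left out. A probe was kept if 2 or more arrays had it well above background in either channel, and a gene is the mean over its probes, those listed for several genes included. Genes were fitted with lmFit and eBayes in limma 3.58.1 (R 4.3.3), each array 1 observation. The fit was first tried on simulated data with independent arrays, which cannot show whether the real arrays were independent. The threshold was a Benjamini-Hochberg adjusted p under 0.05 and at least 2-fold. Python 3.11.15 made tables (pandas 2.3.3, numpy 2.4.6) and plots (matplotlib 3.10.9). The number of arrays limits the precision.

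The enzyme genes and the lists were chosen with earlier results of these data known. Named are these genes, their neighbours past the threshold (IDs within 5 places), the 3 genes most like each, those next in the order of falls, vitellogenins and reference genes. Lists of related enzymes were not run, because the reference table used here does not pair the array's gene IDs with names. Alternatives were normexp, the deposited table, other probe filters and summaries, spike-in scaling, other tests and leaving out each replicate. Likeness on midA's own probes and spike-in scaling per array were added after the data were seen.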

Additional observations from a re-analysis of the deposited data

Results flagged for a closer look

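In 37 sets of 4 values (log2 ratios of the enzyme genes, their neighbours past the threshold, vitellogenins and reference genes, and log2 signals per channel of the enzyme genes), 7 held an array far from the other 3. Chance gives this in about 1 of 20 such sets. The sets share arrays, and those of the same enzyme gene also share probe readings, so they are not independent. For midA (tetur09g06670) replicate 4 stood apart, with a log2 ratio of -5.47 over all probes, -7.31 over its own probes, and a log2 diapausing signal of 10.32. For the glucose dehydrogenase (tetur03g09330) replicate 4 stood apart in the log2 diapausing signal alone, at 6.25. Among the neighbours, tetur12g01510 had its highest log2 ratio, 2.49, in replicate 4, tetur03g09290 had its shallowest, -0.82, in replicate 2, and tetur03g09300 had its deepest, -5.63, in replicate 1.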

How the results depend on the processing

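No fold change of the 5 enzyme genes reversed under any of the 13 alternatives run for each, and 56 of the 65 values moved by less than 1 SD over arrays. Some of these were the reported value itself: the deposited table, no detection filter and detection on all 4 arrays returned it for each gene. Probes of 1 gene only changed midA alone. The SD of midA, 1.57, includes replicate 4, so 117-fold with normexp and median centring still counted as within 1 SD of 226-fold. For midA (tetur09g06670), -7.82 became -10.10 with the median over probes, -11.01 with the brightest probe and -10.42 with probes of 1 gene only. With normexp and loess, or normexp and median centring, the decarboxylase (tetur12g01500) came to -5.41 and -5.09 and the dehydrogenase (tetur03g09330) to -5.17 and -4.85. The protease (tetur19g00740) came to -5.76 with median centring. The offset of 50 shrinks ratios of dim signals by construction. Scaling to the spike-in controls raised the median of all genes from 0.10 to 0.47 and the dehydrogenase to -6.30. Leaving out 1 replicate gave -8.61 to -7.51 for midA.

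Of all genes, 1364 were lower and 1355 higher. Lower and higher were 804 and 337 with normexp and loess, the same with those values split into separate channels and unpaired, 603 and 644 with normexp and median centring, and 708 and 455 in the test beyond 2-fold, and 2788 were higher with spike-in scaling. The shares of lower and higher calls thus changed with the scaling, which gave 912 lower. Of the neighbours, 10 were lower and 2 higher. There were 5 lower and 0 higher with both forms of normexp and with separate channels, 4 and 0 in the test beyond 2-fold, and 4 higher with spike-in scaling. No cause of these shifts was tested, the offset included. The neighbours tetur09g06680, tetur09g06700, tetur03g09300 and tetur03g09310 were past the threshold in all 17 alternatives run. The reported fit is the paired one, as each ratio is taken within an array. Lists of related enzymes were not run. Dim diapausing signals limit the depth of the falls that can be measured.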
